A study of Mus musculus with 16 samples.

Results

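The genes described here are 8 enzymes that write or erase marks on DNA and histones: the DNA methyltransferases Dnmt1 and Dnmt3a, the 5-methylcytosine oxidases Tet2 and Tet3, the H3K27 demethylases Kdm6b and Kdm6a, the histone deacetylase Hdac7 and the H3K9 methyltransferase Suv39h1. They were taken by name as 8 of the 16243 genes that all 9 CD8 matrices list. Each was counted in 32 libraries, the tags that cell barcodes carry, in CD8+ cells (at least 1 unique molecular identifier, or UMI, of Cd8a or Cd8b1). Cells with a UMI in at least 2 of Mki67, Top2a, Birc5 and Stmn1, all genes of dividing cells, formed the dividing class (6257 cells) and the remaining CD8+ cells are called other cells (50328 of the 72639 cells in the matrices). No member was used to choose cells, samples or classes.

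The study followed CD8+ T cells in mouse kidney allografts that are accepted without immunosuppression. Accepted grafts were DBA/2J kidneys in C57BL/6J recipients, sampled with the recipient spleen at 1, 3 and 24 weeks (3, 5 and 3 libraries per tissue). Rejecting grafts were C57BL/6J kidneys in DBA/2J recipients at 1 week (2 kidney and 3 spleen libraries), and naive spleens of C57BL/6J mice gave 5 libraries. All mice were male and, per the labels, wild type. The strain label reads C57BL/6J for every sample, the DBA/2J recipients included, so strain of the T cells and outcome of the graft cannot be told apart. Both rejecting matrices list 32285 genes and the other CD8 matrices 17517 to 19497. How the files were made therefore goes together with strain and outcome. Viable CD45+ cells were sorted before 3′ single-cell RNA sequencing.

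DNA methylation and histone marks help a T cell keep a gene on or off through cell divisions. Dnmt1 copies methyl groups onto the new DNA strand behind the replication fork, guided there by Uhrf1, while Dnmt3a adds them at unmethylated sites and is known in T cells for silencing genes of the naive and memory states during effector and exhausted differentiation. Tet2 and Tet3 oxidise 5-methylcytosine, the first step of its removal. Kdm6b (JMJD3) and Kdm6a (UTX) take methyl groups off H3K27 and oppose the Polycomb enzymes Ezh2 and Ezh1. Suv39h1 writes H3K9 trimethylation in heterochromatin and acts in CD8+ cells on stem-like genes, and Hdac7 is a class IIa deacetylase that shuttles between nucleus and cytoplasm in T cells.

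Levels are UMIs summed over the cells of 1 class in 1 library and scaled to a sum of 1000000 (CPM), ± SD over libraries, and n is the number of libraries. Other cells summed to between 139816 and 10775716 UMIs per library. Tests were edgeR's quasi-likelihood test on those sums across all genes with plain library totals, and p-values are Benjamini-Hochberg adjusted. In a sum over cells, fewer cells with a transcript and less RNA per cell cannot be told apart. The label CD8 was borne out to a varying degree, with 44.2% of cells CD8+ in accepted spleen at 1 week and 46.8% at 3 weeks, and 77.2% to 100% in the remaining groups apart from the libraries labelled kidney at 24 weeks (47.4%). Those 3 libraries carried a summed RNA of kidney parenchyma genes of 0 to 0.48 CPM, against 4.5 to 5.7 CPM in the spleen libraries of that age, so 24-week values are given as labelled. Plain totals left the median gene off 0 in most comparisons. It stood at 0.46 on the log2 scale for kidney at 3 weeks against 1 week, 0.20 for spleen, 0.66 for rejecting against accepted kidney and −0.51 for kidney at 24 against 3 weeks. That shift grew with intron length, from 0.32 in the shortest to 0.81 in the longest of 10 equal groups of genes by intron length, for kidney at 3 weeks against 1 week. Introns add up to 45.1 to 109 kb in 6 members, whereas Kdm6b and Suv39h1 have 8.21 and 8.32 kb, so changes are set beside the median gene, and a fit with an offset for intron length is given where it ended a member's call or turned its direction. Whether intronic reads were counted alike in all files is not given in the sources used here. The rejecting matrices list more genes than the others, as given above.

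Dnmt1 and Suv39h1 were the 2 members that rose in dividing CD8+ cells. In the accepted kidney at 1 week, where 5061 of 13963 CD8+ cells were dividing, Dnmt1 measured 199, 153 and 203 CPM in dividing cells of the 3 libraries and 55.1, 42.9 and 62.5 CPM in the other cells of the same libraries. Every dividing value lay above every other value. The change was 1.79 ± 0.06 (log2, SE; n = 3 pairs of sums, adjusted p = 1.51e-13, edgeR), a 3.45-fold higher level. Dnmt1 lies on the minus strand of chr9:20907209-20959888 (GRCm38, GENCODE M21).

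Suv39h1 (chrX:8061171-8074760, minus strand) measured 41.1, 30.1 and 39.9 CPM in dividing cells and 9.19, 6.70 and 12.6 CPM in other cells, again without overlap. Its change was 1.94 ± 0.12 (adjusted p = 3.04e-10, edgeR), or 3.83-fold. Dnmt1 UMIs were found in 50.5% of dividing and 11.3% of other cells, at a median of 4316 and 2126 UMIs per cell, and Suv39h1 UMIs in 16.95% and 2.29%.

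Of the remaining members 4 fell in dividing cells of the accepted kidney at 1 week and 2 did not pass the test. Of the 8 members, 6 passed the test, beside 46.4% of all 10398 genes tested (28% higher, 18.3% lower). Dnmt3a fell by 0.46 ± 0.10 (log2; adjusted p = 0.00114), from 27.1 ± 3.34 to 19.6 ± 1.48 CPM, and library 2 kept the smallest gap. Tet2 fell by 0.23 ± 0.08 (adjusted p = 0.0232), Tet3 fell by 0.23 ± 0.07 (adjusted p = 0.0185) and Hdac7 fell by 0.22 ± 0.06 (adjusted p = 0.00742). These 3 small changes missed the threshold when library 1 was left out, when dividing cells had to carry at least 3 of the 4 genes, and without pairing the classes by library, where 3 members passed. Kdm6b (0.12 ± 0.08, adjusted p = 0.212) and Kdm6a (−0.14 ± 0.09, adjusted p = 0.25) did not pass.

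**Figure D1:**
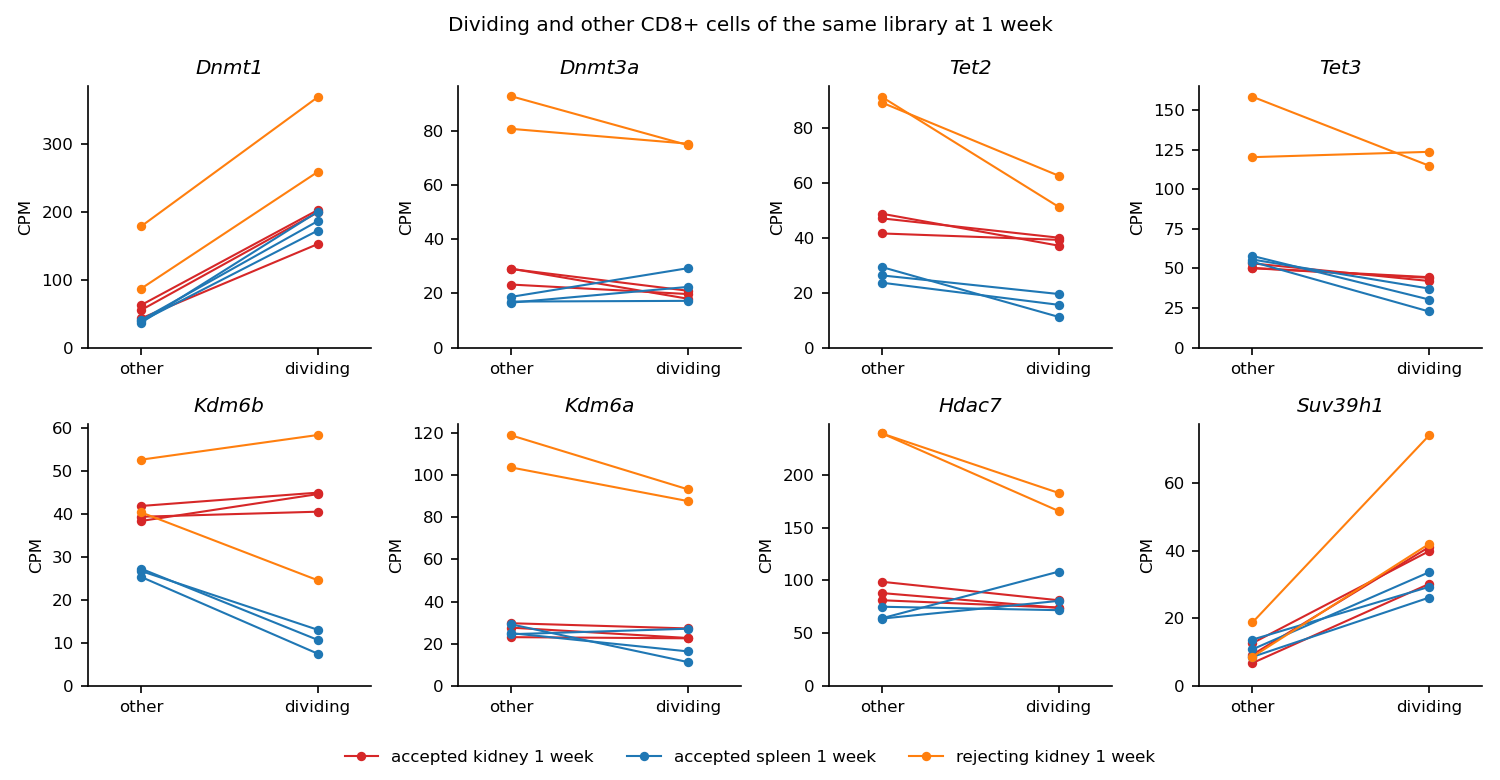
CPM of each member in other (left) and dividing (right) CD8+ cells, 1 line per library, for accepted kidney (red), accepted spleen (blue) and rejecting kidney (orange) at 1 week. Dnmt1 and Suv39h1 go up in all 8 libraries drawn, and each of the other 6 members goes up in 4 libraries or fewer.

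Outside the accepted kidney at 1 week, dividing cells were fewer, and 14 libraries in all held at least 20 of them. Dnmt1 was higher in the dividing class in 13 of the 14, by 4.47- to 5.48-fold in the 3 spleen libraries at 1 week and 2.07- to 2.98-fold in the 2 rejecting kidneys. Suv39h1 was higher in 10 of 14, by 2.15- to 3.12-fold in spleen and 3.96- to 4.91-fold in the rejecting kidneys. The accepted kidney at 3 weeks gave other values, on few cells. There 186 of 21487 CD8+ cells were called dividing, the Dnmt1 ratio ran from 0.692 to 1.29 over 5 libraries on 33 dividing UMIs, and 3 of the 5 libraries had no Suv39h1 UMI in that class. No cell of that class met the G2/M rule used below, at least 2 G2/M genes and fewer than 2 S-phase genes (0 of 186). That allows a share of up to 1.61% of such cells and does not limit cells in that phase. Depth there was a median of 2676.5 UMIs per cell, against 4316 in dividing cells at 1 week, and the difference between the ages was not tested. Kdm6b went lower in dividing cells of the 3 spleen libraries at 1 week, at 0.294 to 0.487 of the level in other cells, on 19 dividing UMIs. Dnmt3a, lower in dividing cells of the accepted kidney at 1 week, was higher in that class in all 3 spleen libraries, at 1.02 to 1.57 of the level in other cells on 36 dividing UMIs, and Hdac7 was higher in 2 of the 3 (0.957 to 1.69, 149 dividing UMIs). Tet2 (0.381 to 0.742, 28 UMIs) and Tet3 (0.420 to 0.670, 54 UMIs) were lower in all 3. In the 2 rejecting kidneys Dnmt3a (0.806 and 0.932), Tet2 (0.562 and 0.702), Hdac7 (0.692 and 0.764) and Kdm6a (0.784 and 0.846) were lower in both. Tet3 (0.725 and 1.03) and Kdm6b (0.609 and 1.11) were each higher in 1 of the 2. These ratios outside the accepted kidney at 1 week were not tested.

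Promoter sequences are printed for the 2 members that rose in dividing cells and for Uhrf1, together with a search for a motif of the cell cycle. RefSeq windows (GRCm38.p6) of 300 bases, 250 before and 50 after a transcript start, were at hand for 7 of the 8 members (15 windows). The set of windows used held none for Kdm6b, which says nothing about RefSeq itself. The E2F factors, which drive genes of S phase, bind sites of the form TTTGGCGC, TTTGCCGC, TTTCGCGC or TTTCCCGC, and these letters were searched on both strands. Of the 3 Dnmt1 windows 1 held 2 matches (chr9:20952574-20952873, minus strand), and 1 of the 2 Suv39h1 windows held 1 (chrX:8074312-8074611, minus strand). The Dnmt1 partner Uhrf1 also had 1 match, in 1 of 2 windows (chr17:56304063-56304362, plus strand). Capitals mark the matches, written as they read on the gene's strand.
Dnmt1: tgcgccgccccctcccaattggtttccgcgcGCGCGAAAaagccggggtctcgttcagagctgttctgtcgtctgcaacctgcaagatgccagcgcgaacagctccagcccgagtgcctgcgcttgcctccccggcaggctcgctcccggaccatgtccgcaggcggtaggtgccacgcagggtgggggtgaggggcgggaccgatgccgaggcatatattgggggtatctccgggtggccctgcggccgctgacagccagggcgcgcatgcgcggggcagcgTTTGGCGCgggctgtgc
Suv39h1: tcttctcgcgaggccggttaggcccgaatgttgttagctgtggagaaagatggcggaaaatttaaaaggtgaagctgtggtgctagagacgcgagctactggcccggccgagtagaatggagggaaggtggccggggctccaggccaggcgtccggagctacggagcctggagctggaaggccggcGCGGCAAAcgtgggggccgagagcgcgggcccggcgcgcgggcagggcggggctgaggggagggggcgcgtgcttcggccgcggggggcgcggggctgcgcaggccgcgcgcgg
Uhrf1: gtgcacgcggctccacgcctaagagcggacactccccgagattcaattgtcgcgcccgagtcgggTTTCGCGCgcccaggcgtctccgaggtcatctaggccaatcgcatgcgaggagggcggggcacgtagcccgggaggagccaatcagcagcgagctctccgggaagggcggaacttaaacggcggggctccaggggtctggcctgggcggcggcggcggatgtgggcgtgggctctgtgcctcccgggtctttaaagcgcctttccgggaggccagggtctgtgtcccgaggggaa
In the Dnmt1 window the matches start at bases 32 (on the opposite strand) and 284. Ezh2 held 1 match too. None was found in the windows of Dnmt3a, Tet2, Tet3, Kdm6a or Hdac7, nor in those of Ezh1, Dnmt3b, Tet1 and Suv39h2, although Suv39h2 also rose in dividing cells. A match was present in 744 of 32851 windows of all genes (2.26%) and in 565 of 11378 windows (4.97%) with at least 15 CpG, and it is a match of letters, not a measured binding site.

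Within dividing cells Dnmt1 differed between phases whereas Suv39h1 did not pass. Dividing cells of the accepted kidney at 1 week were classed by lists of S-phase and G2/M genes. S-list cells (1110) had at least 2 S-phase genes and fewer than 2 G2/M genes, and G2/M-list cells (825) the converse. The rest of the 5061 dividing cells, with any that had at least 2 genes of both lists, entered neither class. Dnmt1 measured 209, 177 and 236 CPM in S-list cells and 69.1, 34.1 and 90.5 CPM in G2/M-list cells, with no overlap between the classes. Its change was 1.55 ± 0.12 (log2; adjusted p = 2.65e-10, edgeR, 3 libraries). Suv39h1 measured 41.3, 23.6 and 34.4 CPM in S-list cells and 24.4, 25.0 and 41.4 CPM in G2/M-list cells, which overlap (−0.04 ± 0.20, adjusted p = 0.922). The 2 members that passed, Dnmt1 and Dnmt3a, stood beside 22.6% of 7401 genes (12.7% higher, 9.85% lower). Dnmt3a (0.69 ± 0.25, adjusted p = 0.0489) missed the threshold under every other scaling, filter and definition of dividing cells tried, and without library 1 or library 3. Uhrf1 followed the Dnmt1 pattern, at 80.8, 73.9 and 109 CPM in S-list and 18.3, 11.4 and 26.6 CPM in G2/M-list cells (2.12 ± 0.17, adjusted p = 4.43e-10).

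Other genes of the same pathways, from lists of chromatin genes by mark, were counted in the same test of dividing against other cells, where 28% of all genes were higher and 18.3% lower. In the DNA methylation list 8 of 20 genes tested rose and 5 fell, with Uhrf1 (2.68 ± 0.13), Dnmt1 and Hells, a chromatin remodeller needed for DNA methylation (1.61 ± 0.08), on top. The H3K27 list had 7 of 13 higher and 3 lower, led by the Polycomb accessory gene Phf19 (2.57 ± 0.23), the methyltransferase Ezh2 (1.36 ± 0.06) and Rbbp7 (1.09 ± 0.06), a histone chaperone of the same complex. The H3K9 list had 7 of 15 higher and 2 lower, Suv39h1 first, then the heterochromatin protein gene Cbx5 (1.56 ± 0.07) and the paralogue Suv39h2 (1.53 ± 0.15). Histone deacetylase genes rose in 5 and fell in 4 of 20. Hdac6 had the largest change (1.18 ± 0.24), on 2.54 CPM in other cells. The class I enzymes Hdac1 (0.61 ± 0.06), Hdac2 (0.63 ± 0.09) and Hdac3 (0.48 ± 0.11) also went opposite to Hdac7. Hdac8, of class I too, was not called (−0.14 ± 0.15). In the H3K4 list 5 of 15 rose and 7 fell, and the demethylase Kdm5b had the lowest value (−1.42 ± 0.13). Histone acetyltransferase genes rose in 3 and fell in 1 of 11, and the shares that rose in these lists of deacetylases and acetyltransferases lay near that of all genes. With the intron offset, where 23.5% of all genes were higher and 23.5% lower, the H3K4 counts were 2 higher and 8 lower. List medians ran from −0.15 (H3K4) to 0.37 (H3K27), against 0.03 for all genes.

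**Figure D2:**
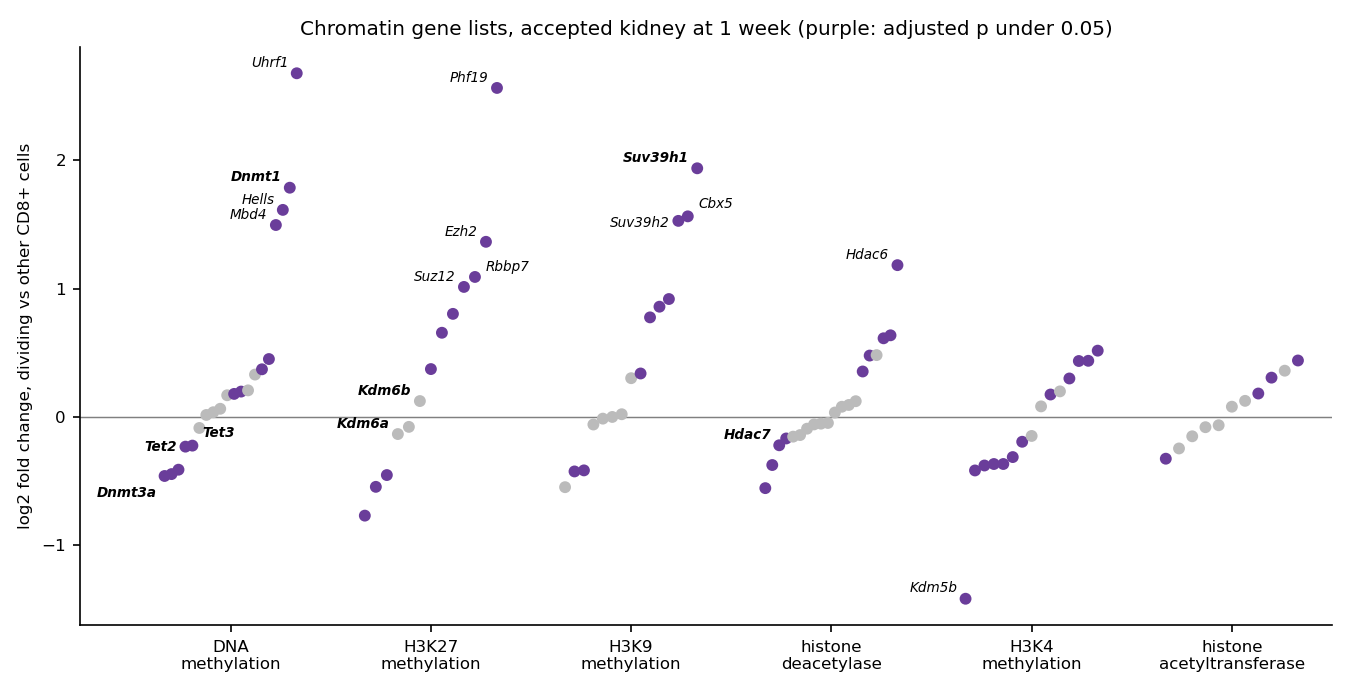
Log2 fold change of dividing against other CD8+ cells of the accepted kidney at 1 week for each gene tested in 6 lists of chromatin genes, 1 point per gene, purple where the adjusted p is under 0.05 and members in bold. Uhrf1 (2.68), Phf19 (2.57), Suv39h1 (1.94) and Dnmt1 (1.79) have the highest values and Kdm5b (−1.42) the lowest.

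Across the 9 conditions the members spanned 1.86-fold (Suv39h1) to 4.98-fold (Dnmt3a) between the lowest and the highest mean in other cells. The rejecting kidney ranked first for 6 members, and Kdm6b and Suv39h1 were the exceptions, with the spleen labelled 24 weeks and the spleen at 3 weeks in first place. The 6 are the members with long introns and the 2 exceptions those with short introns, and with the intron offset 5 of the 6 were no longer called higher in rejecting kidney, as given below. For most neighbours in these orders the ranges of libraries overlapped. Dnmt1 and Kdm6b had no pair of neighbours apart, and neither had Suv39h1. The rejecting kidney lay apart from the condition next in mean for Dnmt3a, Tet2, Tet3 and Hdac7. For Tet2 the rejecting kidney (89.4 to 91.4 CPM) still overlapped the rejecting spleen further down the order (33.6 to 93.0 CPM). The same held for Tet3 (120 to 159 against 78.7 to 146 CPM). Both rejecting tissues lay apart from the rest for Kdm6a. The lowest condition lay apart for Dnmt3a (spleen at 1 week) and Tet3 (spleen labelled 24 weeks). How many of all genes ranked first or lay apart in the same way was not counted. Against accepted kidney at 1 week the median gene was 0.66 higher (log2) in rejecting kidney, and 47% of genes were called higher.

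**Figure D3:**
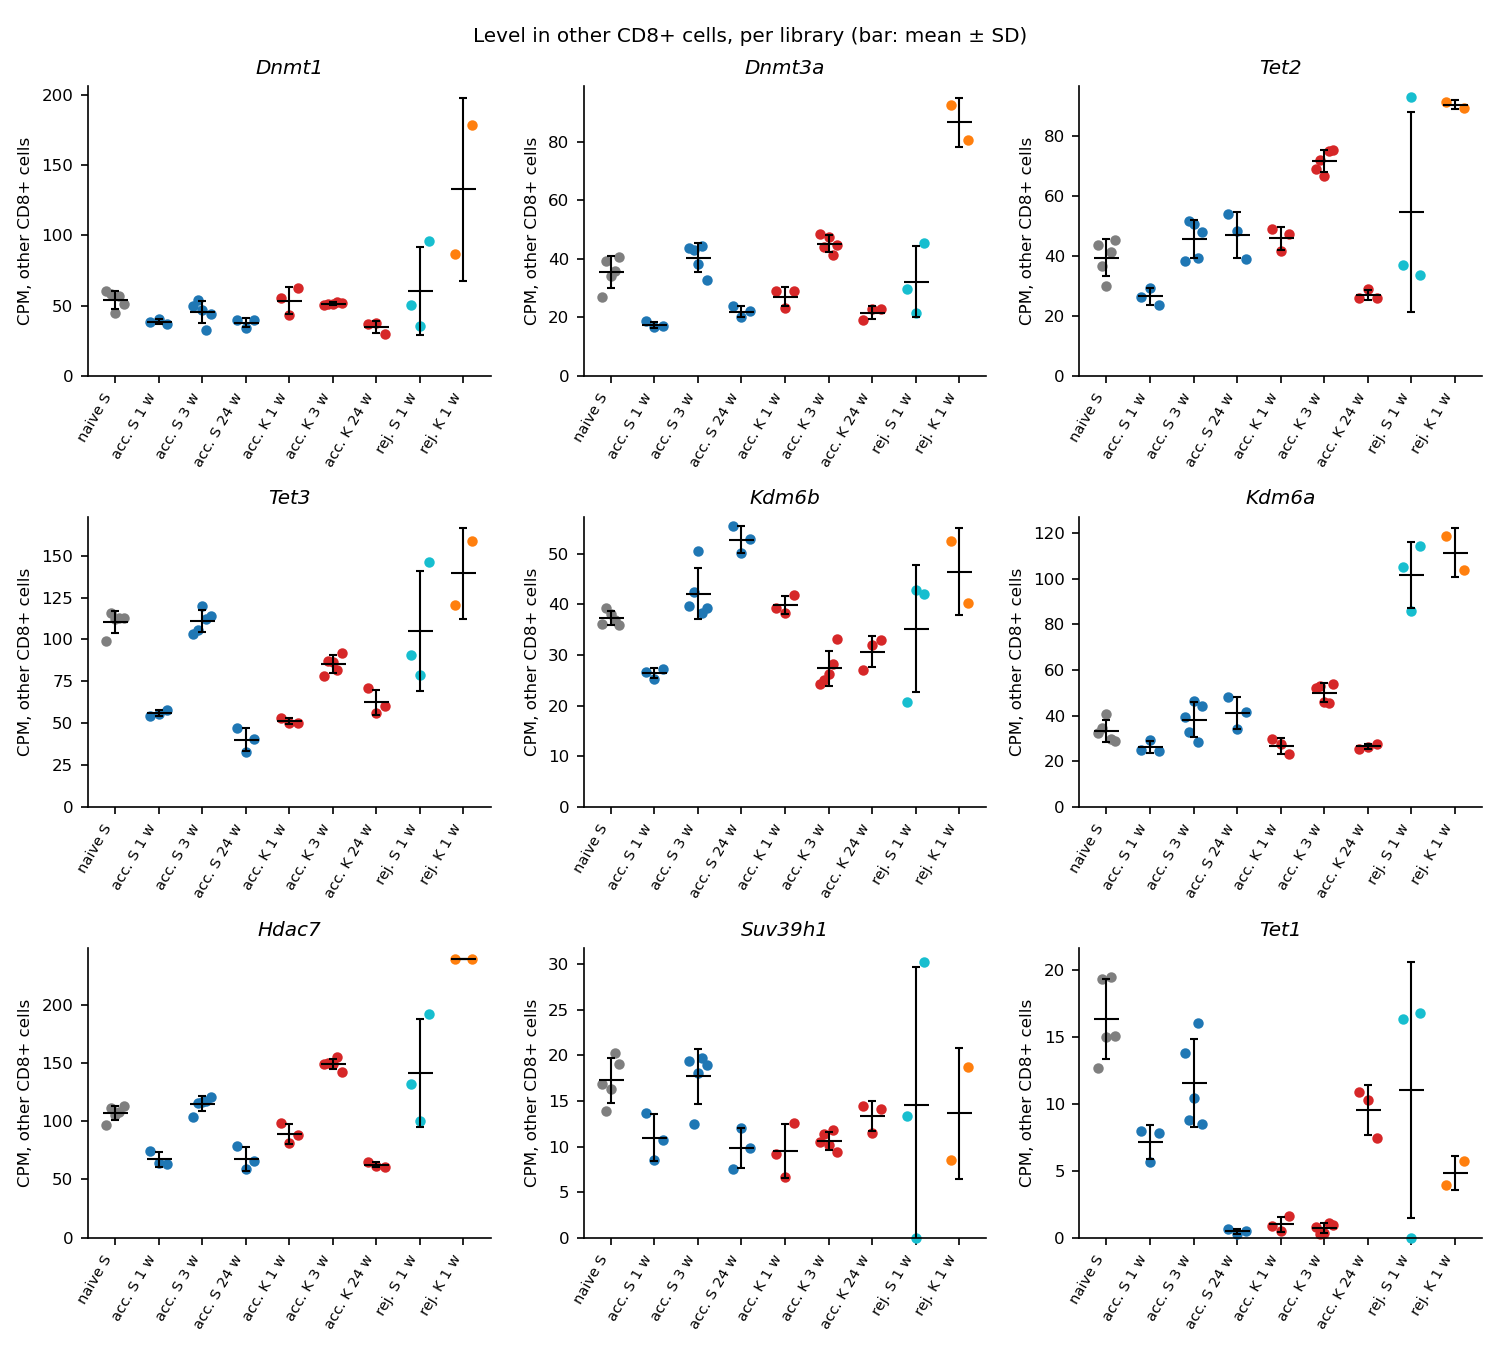
CPM in other CD8+ cells per library (points) with mean ± SD (bars) in spleen (S) and kidney (K) of naive, accepted (acc.) and rejecting (rej.) mice at the week (w) given, for the 8 members and Tet1. Kdm6a separates the 5 rejecting libraries from all others, and Tet1 is near 0 in accepted kidney at 1 and 3 weeks and in the libraries labelled spleen at 24 weeks.

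Kdm6b moved in opposite directions in graft and spleen between 1 and 3 weeks. In other CD8+ cells of the accepted kidney it measured 39.3, 38.3 and 41.8 CPM at 1 week and 24.3, 25.1, 26.2, 28.1 and 33.1 CPM at 3 weeks. All 3-week libraries lay below all 1-week libraries, and Kdm6b fell by 0.54 ± 0.11 (log2; adjusted p = 0.00024, edgeR, n = 3 and 5), or to 0.687 of its 1-week level. In the recipient spleen it measured 26.7, 25.3 and 27.2 CPM at 1 week and 39.7, 42.5, 50.6, 38.3 and 39.3 CPM at 3 weeks. There all 3-week libraries lay above, with a rise of 0.67 ± 0.11 (adjusted p = 6.93e-05), or 1.59-fold. The kidney change minus the spleen change was −1.21 ± 0.16 (adjusted p = 3.44e-06, 16 libraries), against 0.24 for the median gene. It ran from −1.47 to −1.14 over every other scaling, filter and cell class tried and every library left out, with adjusted p up to 3e-05. Kdm6b (chr11:69398508-69413675, minus strand) belongs to the genes with short introns, and the fall was −0.98 with TMM factors (trimmed mean of M-values) and −0.80 with the intron offset. Summed B cell markers in the same cells stood at 413 to 822 CPM in spleen at 1 week and 101 to 287 CPM at 3 weeks, and myeloid markers at 172 to 248 CPM in kidney at 1 week and 347 to 704 CPM at 3 weeks. Without the cells that carried such markers the changes were −0.52 in kidney and 0.70 in spleen.

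Of the other members, 5 rose in the kidney between 1 and 3 weeks on plain totals, so that with Kdm6b 6 of 8 were called, beside 73% of all 11315 genes (55.9% higher, 17.2% lower). Kdm6a, the H3K27 demethylase encoded on the X (chrX:18162575-18279936, plus strand), measured 29.7, 27.6 and 23.1 CPM at 1 week and 52.0, 53.0, 45.9, 45.4 and 54.0 CPM at 3 weeks, without overlap (0.91 ± 0.11, adjusted p = 1.23e-06). Hdac7 (chr15:97792664-97844502, minus strand) measured 98.5, 81.0 and 87.8 CPM and then 142 to 155 CPM, with a median of 149 (0.74 ± 0.08, adjusted p = 6.95e-07). Dnmt3a (chr12:3806007-3914443, plus strand) went from 29.1, 23.2 and 29.0 to 41.4 to 48.4 CPM (0.74 ± 0.10, adjusted p = 6.87e-06). Both oxidases were higher as well, with no overlap between the ages. Tet3 (chr6:83362373-83459084, minus strand) went from 51.2 ± 1.72 to 85.3 ± 5.37 CPM (0.74 ± 0.08, adjusted p = 8.85e-07), and Tet2 (chr3:133463679-133545139, minus strand) from 45.8 ± 3.76 to 71.5 ± 3.74 CPM (0.64 ± 0.09, adjusted p = 5.98e-06). These 5 changes lay 0.19 to 0.45 above the median gene. With TMM factors they came to 0.21 to 0.47 and all passed, and with the intron offset Dnmt3a (0.04), Tet3 (0.04) and Kdm6a (0.15) no longer passed and Tet2 turned to −0.05. Dnmt1 (−0.06 ± 0.10, adjusted p = 0.615) and Suv39h1 (0.16 ± 0.17, adjusted p = 0.418) were not called on plain totals, but Dnmt1 was lower at −0.49 with TMM factors and at −0.61 with the intron offset. Its direction also turned on how dividing cells were set aside, since it was −1.22 over all cells and 0.33 when cells with 1 dividing gene were removed too.

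**Figure D4:**
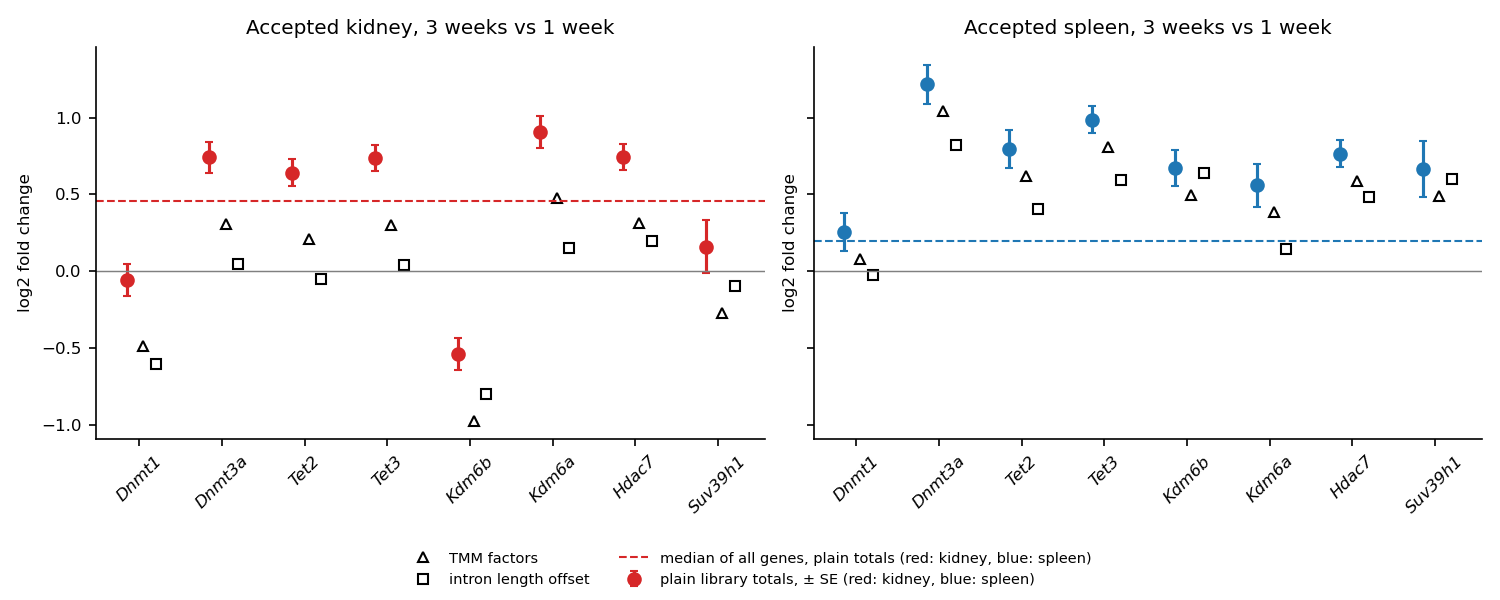
Log2 fold change of each member at 3 weeks against 1 week in other CD8+ cells of accepted kidney (left) and spleen (right), as points ± SE on plain library totals, with TMM factors (triangles) and an intron length offset (squares). Kdm6b lies below 0 in kidney and above 0 in spleen under each scaling, and the dashed line gives the median gene (0.46 and 0.20).

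In the spleen 7 of 8 members rose between 1 and 3 weeks, beside 48.2% of 9359 genes (33.4% higher). Dnmt3a had the largest change among the members, from 18.7, 16.6 and 16.96 CPM to 43.9, 42.9, 38.2, 44.5 and 32.7 CPM (1.22 ± 0.13, adjusted p = 2.24e-07). The ages did not overlap. Tet3 went from 55.9 ± 1.87 to 111 ± 6.68 CPM (0.99 ± 0.09, adjusted p = 2.74e-08), also without overlap. Among the genes of their own intron length group, Dnmt3a stood at percentile 99 and Tet3 at 95.8. Tet2 (0.80), Hdac7 (0.77), Suv39h1 (0.67) and Kdm6a (0.56) rose too, and Kdm6a (0.15) lost its call with the intron offset. Dnmt1 (0.25 ± 0.12, adjusted p = 0.0879) did not pass.

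For the difference between the tissues in that change, 2 of 8 members passed, beside 28.6% of 11351 genes (21.5% higher, 7.15% lower). Kdm6b is described above. Dnmt3a changed less in kidney than in spleen, by −0.48 ± 0.16 (adjusted p = 0.0277), and lost this call when kidney library 1 or 3 or spleen library 2 or 3 of 1 week was left out (−0.45 to −0.42). Over all cells of the matrices the Dnmt3a difference was −0.25. With TMM factors 5 members passed, all lower in kidney relative to spleen, among them Dnmt1 (−0.53), Tet3 (−0.47) and Suv39h1 (−0.72). The 28.6% of all genes is from plain totals and gives no background for this TMM count.

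Other genes of the pathways were counted for kidney at 3 weeks against 1 week, where 55.9% of all genes were higher and 17.2% lower; no list was tested against another. All 11 histone acetyltransferase genes tested rose, led by Crebbp (1.45 ± 0.11) and the MYST-family genes Kat6b (1.36) and Kat6a (1.25), and 14 of 15 H3K4 genes rose, led by the methyltransferases Kmt2c (1.81 ± 0.11), Kmt2d (1.61) and Kmt2a (1.60). In the H3K9 list 12 of 15 rose and 1 fell, and in the histone deacetylase list 13 of 21 rose and 2 fell. The DNA methylation list had 9 of 20 higher and 3 lower, and the H3K27 list 6 of 13 higher and 3 lower. Uhrf1, which brings Dnmt1 to replicated DNA, fell from 10.5 ± 4.53 to 2.72 ± 0.326 CPM (−1.95 ± 0.24, adjusted p = 1.79e-06). Ezh2 fell by 0.65 ± 0.12 (adjusted p = 0.000164) while its paralogue Ezh1 rose by 1.25 ± 0.09 and the de novo methyltransferase Dnmt3b by 1.27 ± 0.16. Summed dividing-cell markers in the same other cells stood at 90.1 to 248 CPM at 1 week and 60.04 to 76.2 CPM at 3 weeks, and G2/M-list genes at 41.4 to 192 and 16.4 to 20.9 CPM. When cells with 1 dividing gene were removed too, Uhrf1 was at −1.21 and Ezh2 at −0.55, both still called. List medians were 0.92 for H3K4, 0.86 for acetyltransferases, 0.66 for H3K9, 0.47 for deacetylases, 0.25 for DNA methylation and 0.09 for H3K27, against 0.46 for all genes and 0.69 for the 8 members. With the intron offset 33.5% of all genes were higher and 29.5% lower, and the counts of higher and lower genes became 7 and 0 of 11 for acetyltransferases, 10 and 0 of 15 for H3K4, 6 and 2 of 15 for H3K9, 8 and 5 of 21 for deacetylases, 5 and 7 of 20 for DNA methylation and 3 and 7 of 13 for H3K27.

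The question of graft against spleen was asked within each age. At 1 week 5 of 8 members were higher in the kidney and none lower, beside 44.6% of 10431 genes (26.4% higher). Tet2 measured 48.8, 41.6 and 47.1 CPM in kidney and 26.3, 29.3 and 23.6 CPM in spleen (0.80 ± 0.13, adjusted p = 7.3e-05). Dnmt3a (0.64), Kdm6b (0.59), Dnmt1 (0.48) and Hdac7 (0.40) followed, and the median gene was at 0.05. Dnmt1 lost its call (0.12) when cells with 1 dividing gene were removed as well. Tissue and library preparation go together here, and B cell markers stood at 9.07 to 10.1 CPM in kidney against 413 to 822 CPM in spleen. Myeloid markers stood at 172 to 248 CPM in kidney against 25.0 to 29.1 CPM in spleen, and dividing-cell markers at 90.1 to 248 against 37.8 to 43.7 CPM. Tet2 without marker-carrying cells stayed called.

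At 3 weeks 3 members were higher in the kidney and 3 lower, beside 65.4% of 10598 genes (48.6% higher, 16.7% lower), with the median gene at 0.28. Myeloid markers stood at 347 to 704 CPM in kidney and 8.29 to 23.3 CPM in spleen, and B cell markers at 11.7 to 26.5 and 101 to 287 CPM. Without the cells that carried such markers all 6 calls remained. Tet2 was again higher, at 66.7 to 75.3 CPM in 5 kidney libraries and 38.3 to 51.7 CPM in 5 spleen libraries, with no overlap (0.65 ± 0.09, adjusted p = 2.01e-06). Tet3 showed the reverse order, at 78.0 to 92.0 CPM in kidney and 103 to 120 CPM in spleen (−0.38 ± 0.07, adjusted p = 7.03e-05). Kdm6b fell by 0.62 ± 0.11 relative to spleen (adjusted p = 3.37e-05) and Suv39h1 by 0.72 ± 0.14 (adjusted p = 0.000106). Kdm6a and Hdac7, both at 0.38, lost their calls with TMM factors (0.12 and 0.11) and with the intron offset (0.09 and 0.06), which put Tet2 at 0.36 and Tet3 at −0.67, both called.

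The third oxidase gene, Tet1, is no member but completes the family, and in accepted grafts its level differed between kidney and spleen. It measured 0.525 to 1.64 CPM in accepted kidney at 1 week, 0.319 to 1.13 CPM at 3 weeks, 5.68 to 7.99 CPM in spleen at 1 week, 8.53 to 16.1 CPM at 3 weeks and 12.7 to 19.4 CPM in naive spleen. Kidney lay below spleen by 2.78 ± 0.35 at 1 week (log2; adjusted p = 4.42e-06) and by 3.95 ± 0.29 at 3 weeks (adjusted p = 3.56e-10), without overlap at either age. The 3 libraries labelled kidney at 24 weeks held 10.9, 10.3 and 7.44 CPM and the 3 labelled spleen 0.631, 0.300 and 0.495 CPM, which is the reverse of both earlier ages. Rejecting kidneys held 3.95 and 5.76 CPM and rejecting spleens 16.3, 0 and 16.8 CPM, and the 0, in a small library, allows up to 21.5 CPM.

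Naive spleens came from mice without a transplant, not from the recipients before it, so differences here are between mice. Of their cells 96.1% were CD8+, against 44.2% in accepted spleen at 1 week. Median depth in other cells was 4316 and 2818.5 UMIs per cell. All 8 members were lower in accepted spleen at 1 week than in naive spleen, beside 38.4% of 10024 genes lower (56.8% called in either direction). Tet3 measured 54.2, 55.6 and 57.9 CPM in the 3 spleens at 1 week and 98.8, 116, 112, 113 and 113 CPM in the 5 naive spleens, and fell by 0.98 ± 0.08 (adjusted p = 2.99e-09). Dnmt3a, at 16.6 to 18.7 CPM against 26.9 to 40.8 CPM, fell by 1.01 ± 0.13 (adjusted p = 1.2e-06). Neither pair of groups overlapped. The other 6 members went down by less, from −0.66 (Hdac7) to −0.35 (Kdm6a, adjusted p = 0.0156), and the median gene stood at −0.21. With the intron offset 5 of the 8 stayed called, and Dnmt1 (−0.18) and Tet2 (−0.20) did not pass. The shares of all genes in this paragraph are from plain totals and give no background for that count. Kdm6a lost its call with TMM factors (−0.16), without spleen library 1 or 3 or without naive library 3, and was at 0.05 with the intron offset. Dnmt1 was at 0.02 over all cells of the matrices, where dividing-cell markers summed to 241 to 549 CPM at 1 week, against 37.8 to 43.7 CPM in the other CD8+ cells. B cell markers in the CD8+ cells were at 413 to 822 CPM at 1 week and 28.0 to 55.8 CPM in naive spleen, and their part in these differences was not tested. By 3 weeks spleen levels of Tet3 (111 ± 6.68 CPM) and Dnmt3a (40.4 ± 4.99 CPM) stood beside naive levels of 110.5 ± 6.72 and 35.4 ± 5.42 CPM, and the ranges overlapped.

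Rejecting kidneys were compared with accepted kidneys at 1 week, 2 libraries against 3. Of the members, 6 of 8 were higher, beside 58.7% of 10980 genes (47% higher). Kdm6a measured 119 and 104 CPM in the rejecting and 23.1 to 29.7 CPM in the accepted kidneys (2.07 ± 0.18, adjusted p = 1.17e-07). Its 3 rejecting spleen libraries were as high, at 105, 85.8 and 114 CPM, so that all 5 libraries of DBA/2J recipients (85.8 to 119 CPM) lay above all 27 of C57BL/6J mice (23.1 to 54.0 CPM). Dnmt3a (92.7 and 80.7 CPM; 1.69 ± 0.19), Hdac7 (239 in both; 1.43 ± 0.16), Tet3 (120 and 159; 1.42 ± 0.17), Dnmt1 (86.8 and 179; 1.24 ± 0.25) and Tet2 (91.4 and 89.4; 0.98 ± 0.17) lay above all accepted kidneys at 1 week. Kdm6b (52.6 and 40.4; 0.26 ± 0.20, adjusted p = 0.275) and Suv39h1 (8.55 and 18.7; 0.35 ± 0.41, adjusted p = 0.48) did not pass.

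In this comparison the intron shift was at its widest: the median log2 change went from −0.37 in the shortest to 2.15 in the longest intron length group, and Kdm6a stood at percentile 47.4 of its own group. With the intron offset Kdm6a was at 0.09, Tet3 at 0.03, Dnmt3a at 0.31, Dnmt1 at 0.21 and Tet2 at −0.41, and the 2 members called were Hdac7, still higher (0.40), and Tet2, now lower. TMM factors took the calls of Dnmt1 (0.55) and Tet2 (0.31). Summed S-list genes in the other cells stood at 357 to 731 CPM in rejecting and 305 to 468 CPM in accepted kidneys at 1 week. Uhrf1 measured 5.26 and 38.9 CPM in the rejecting kidneys with Dnmt1 at 86.8 and 179 CPM. The part of such RNA in the Dnmt1 difference was not tested. The rejecting spleen held 683 other cells in 3 libraries. Its members scattered widely, Dnmt1 from 35.8 to 95.8 CPM and Hdac7 from 100 to 192 CPM, and library 2 had no Suv39h1 UMI in 139816, which allows up to 21.5 CPM.

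As labelled, kidneys at 24 weeks had 6 of 8 members lower than at 3 weeks, beside 71% of 11471 genes (56.9% lower). Tet2 measured 26.1, 28.9 and 25.9 CPM against 66.7 to 75.3 CPM (−1.41 ± 0.09, adjusted p = 1.04e-09) and Hdac7 64.8, 61.9 and 60.7 CPM against 142 to 155 CPM (−1.26 ± 0.07, adjusted p = 2.92e-10). Dnmt3a (−1.06) and Kdm6a (−0.91) were lower too. Tet3 (−0.45) and Dnmt1 (−0.58) stood near the median gene at −0.51, and with TMM factors Tet3 turned to 0.02 and Dnmt1 lost its call (−0.10). With the intron offset Tet3 was at 0.23, Dnmt1 at 0.05 and Kdm6a at −0.16, the last no longer called. Kdm6b (0.17 ± 0.12, adjusted p = 0.219) and Suv39h1 (0.33 ± 0.15, adjusted p = 0.0516) were not lower, and with TMM factors both were higher (0.65 and 0.81). Myeloid markers in the same cells stood at 347 to 704 CPM at 3 weeks and 6.24 to 12.8 CPM in the libraries labelled 24 weeks, and B cell markers at 11.7 to 26.5 and 79.2 to 212 CPM. Without the cells that carried such markers the 6 calls remained, and Suv39h1 was called higher (0.40, adjusted p = 0.0259). Of the cells in these libraries 47.4% were CD8+. Between the tissues at 24 weeks, Tet1 had the reverse order of the earlier ages and kidney parenchyma RNA was lower in the libraries labelled kidney, as given above.

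The members with the most alike order of levels over the 9 conditions were Tet2 and Kdm6a (Spearman rho 0.933) and Dnmt3a and Hdac7 (0.90), whereas Kdm6b reached 0.05 to 0.45 with the others. Among 5442 genes averaging 20 CPM or more, the order of Dnmt3a was matched in full by Myh9 and Dhx16, that of Tet3 by Nsun2, that of Hdac7 by Zdhhc3 and that of Tet2 by Ptpn9. For Kdm6a, 17 genes had the same order, Dgkd, Nvl and Pde7a among them. Dnmt1 was nearest to Eif3j1 (0.983), Suv39h1 to Sf3a3 (0.967), and Kdm6b had no close match (Ywhab, 0.75). All these values share their libraries and depth and are descriptions over 9 points. They rest on plain totals without the intron offset. Introns add up to 45.1 to 109 kb in Tet2, Kdm6a, Dnmt3a and Hdac7, and to 8.21 and 8.32 kb in Kdm6b and Suv39h1.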

How the data were processed

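The authors aligned reads to mm10 with Cell Ranger and deposited UMI counts per gene and cell, per the labels and the study's methods; versions are not given in the sources used here. The 9 CD8 matrices were used and the 7 CD45 samples were not. Counts of CD8+ cells were summed per library tag and class (dividing or other), and the tags served as replicates. In accepted tissues they match the numbers of mice the study gives by week. The study gives no separate number for rejecting or naive mice. At most 1.79% of a library's barcodes recurred in another. No doublet caller was run.

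Sums were tested with edgeR 4.0.16 (quasi-likelihood, plain library totals, Benjamini-Hochberg, threshold 0.05), paired by library for dividing and for S against G2/M cells. The classes came from the same library, so the tags pair them by design. On simulated counts the fit recovered 98% of 3-fold and 40% of 1.5-fold changes for kidney at 3 against 1 week (11275 genes). It recovered 82% and 10% for the tissue difference (11070 genes) and 68% and 9% for rejecting against accepted kidney (10621 genes). The simulated counts had the same dispersion for every gene, few changed genes and no shift of the median gene. The data differ in this, so recovery there can differ. Alternatives were TMM factors, DESeq2 1.42.0, no low-count filter, an offset for intron length (GENCODE M21, 10 groups), other classes of cells, all conditions in 1 fit and leaving out libraries. Named genes are the 8 members, their partners and the leading 3 of each list. Members and lists were chosen with earlier results of these data known. Depths are given in the report, and bounds on counts of 0 cover counting error only. SD is over libraries, and the SE of a log2 change is its size divided by the square root of the fit's F statistic.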

Additional observations from a re-analysis of the deposited data

Results flagged for a closer look

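Between 1 and 3 weeks the change of 2 of the 8 members differed between kidney and spleen by a test of the difference itself. That count stands beside 28.6% of all 11351 genes tested. For Kdm6b the kidney change minus the spleen change was −1.21 on the log2 scale, with opposite directions in the tissues. For Dnmt3a it was −0.48, with a rise in both tissues, and this call was lost when some single libraries were left out, as given above. Among 24 groups of 4 to 10 libraries looked at, 2 held a library far from the rest, where chance gives about 1 in 20. Tet3 was lowest in naive spleen library 1 (98.8 CPM, the other 4 at 112 to 116 CPM). Suv39h1 was lowest in library 2 of the spleen at 3 weeks (12.5 CPM, the other 4 at 18.1 to 19.7 CPM).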

How the results depend on the processing

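Over all alternatives 1218 member values stayed on their side of the threshold, and the called ones among them kept their direction. For values called in neither fit the direction was not read. A call was lost in 60 and gained in 39, and 11 changed sign where the main or the alternative fit called them. Of other named genes 6 changed sign in that way. Without 1 library, the members called numbered 6 to 7 (kidney, 3 against 1 week), 7 to 8 (spleen), 1 to 4 (difference between tissues), 3 to 6 (dividing) and 1 to 2 (S against G2/M), and the genes called for S against G2/M numbered 1008 to 1600, lowest without library 3. For the tissue difference 1 member was called without kidney library 1 or 3 or spleen library 2 or 3 of 1 week, and 4 without kidney library 2. For dividing cells 3 were called without library 1. The intron offset called 3 members for kidney, 5 for spleen against naive, 2 for rejection and 5 for the tissue difference. For that difference TMM factors called 5, DESeq2 6, at least 3 dividing genes 4 and all cells 5. Genes called there were 2160 without marker-carrying cells and 4935 over all cells, against 3251. Shares of all genes under the intron offset are printed only for kidney (33.5% higher, 29.5% lower) and dividing cells. Other member counts under alternative fits have no such share beside them. For dividing cells DESeq2 called 2549 genes. Requiring 3 dividing genes left 3 members. With no replicate block (no pairing by library) 3 members and 2761 genes were called for dividing cells, and 1 member and 835 genes for S against G2/M, where DESeq2 called 492 genes; TMM factors, DESeq2, no filter, the intron offset, clean cells and dividing by 1 or 3 genes left 1 member there. Signs changed with the intron offset for Tet2 (kidney −0.052, rejection −0.41), Kdm6a (spleen against naive 0.048), Dnmt1 (24 weeks 0.048), Tet3 (24 weeks 0.23, and 0.025 with TMM, 0.026 with DESeq2), Ezh2 (rejection −0.47) and Hdac1 (spleen against naive 0.00225). Over all cells they changed for Suv39h1 (kidney −1.11, kidney against spleen 0.81), Dnmt1 (spleen against naive 0.019) and Hdac1 (kidney −0.12). Hdac1 in kidney was −0.23 with TMM, −0.23 with DESeq2 and −0.15 with the intron offset, and Dnmt1 in kidney was 0.33 when 1 dividing gene sufficed. The causes were not tested. Depth limits Suv39h1, the rejecting spleen and dividing cells outside 1 week. Kidney and spleen tags of 1 age share numbers, though the labels do not say that a number is a mouse. Same-number libraries deviated together with correlations of 0.101 to 0.468 at 3 weeks (all 5 pairs) and 0.0036 to 0.136 at 1 week, and 5 of 8 correlated best with their own number. A replicate block by tag number, chosen after seeing the data, changed no member's call: 2 members and 3546 genes were called for the tissue difference (Kdm6b −1.23), 5 and 4850 for kidney against spleen at 1 week and 6 and 7189 at 3 weeks. No paired analysis was possible for the remaining comparisons because they set different mice against each other.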
